A study of Mus musculus with 4 samples.

Results

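The cadherin superfamily genes described here are the 53 of 32285 mouse genes whose symbols mark them as classical cadherins, desmogleins, desmocollins, non-clustered protocadherins, Fat and Dachsous cadherins, or Celsr genes. Membership follows from the symbol. Counts came from single-nucleus RNA sequencing of 4 liver libraries, 2 labelled WT for wild type and 2 labelled CKO for a knockout of Rbpj in hepatic progenitor cells. All libraries were from male mice that were 10 to 11 weeks old when a 4-week treatment with DDC began, a toxicant that injures bile ducts and expands ductular cells. The labels used here give neither the Cre driver nor the deleted exons of Rbpj, the DNA-binding partner of Notch, and they do not say whether the replicates of a genotype were separate animals, so p-values measure the spread between libraries.

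Cadherins are calcium-dependent adhesion proteins. Classical cadherins join neighbouring cells at adherens junctions and bind catenins inside the cell, desmogleins and desmocollins do the same at desmosomes, and protocadherins, Fat, Dachsous and Celsr proteins act in recognition, growth control and planar polarity. In the liver, E-cadherin and N-cadherin are known to divide the hepatocyte plate between them, and bile ducts, vessels and stellate cells each carry their own members.

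Libraries differed in size. The 2 first replicates each held 16000 barcodes and the second replicates 6480 (WT) and 5184 (CKO), and library totals ran from 12261329 to 45620141 unique molecular identifiers (UMIs, the count of captured transcripts). Of 43664 barcodes 39017 were kept and 17895 fell in clusters that could be named from markers, and 333 barcodes occurred in more than 1 library. Nuclei of 5 classes were numerous enough to test. They were cholangiocyte-like (1241, 264, 397 and 30 nuclei in WT replicate 1, WT replicate 2, CKO replicate 1 and CKO replicate 2, the order used for all values below), hepatocyte-like (1786, 1130, 936 and 1657), endothelial-like (1352, 242, 902 and 152), mesenchymal-like (682, 200, 402 and 87) and macrophage-like (2753, 418, 2250 and 162). Raised markers numbered 11 of 13 for cholangiocyte-like, 14 of 14 for mesenchymal-like, 10 to 12 of 12 for endothelial-like, 8 to 10 of 12 for macrophage-like and only 4 to 5 of 12 for hepatocyte-like clusters. Hepatocyte-like nuclei of the 4 libraries fell mainly in 4 different clusters (2, 17, 20 and 22), and most endothelial-like and macrophage-like nuclei of CKO replicate 1 also lay in clusters of their own (11 and 19). Free RNA from other cells was estimated at 27.8 to 38.6% of UMIs in hepatocyte-like nuclei and at 70.1 to 84.3% in endothelial-like nuclei. The former was scaled to mitochondrial transcripts and the latter to secreted hepatocyte transcripts, so these ranges are not the same measure. The targeted gene, Rbpj, stood at 78.5, 69.5, 66.0 and 16.7 CPM (counts per 1000000 UMIs of the class and library) in cholangiocyte-like nuclei, the last value from 1 UMI, a log2 change of -0.24 (SE 0.32, adjusted p = 1.0 in edgeR). Reads from the 3′ end of a transcript need not lie in the deleted part. The files also count added sequences: eGFPcre had 54, 0, 5 and 4 UMIs and EYFP 265, 8, 20 and 39, so that most UMIs of both were in WT replicate 1.

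Expression was divided by class, and 25 of the 53 genes held at least 100 UMIs over the 5 classes. Of these, 5 were highest in cholangiocyte-like, 7 in hepatocyte-like, 7 in endothelial-like, 5 in mesenchymal-like and 1 in macrophage-like nuclei, by the mean over libraries. In 11 of the 25 every library of the leading class lay above every library of the other 4 classes. These were Cdh1, Cdh3, Cdh6 and Dsg2 in cholangiocyte-like nuclei, Cdh18 in hepatocyte-like nuclei, Cdh4, Cdh5, Cdh13 and Dchs1 in endothelial-like nuclei, and Pcdh7 and Pcdh11x in mesenchymal-like nuclei. The 53 genes were kept out of the variable genes that gave the clusters, and these levels are descriptions without a test.

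**Figure D1:**
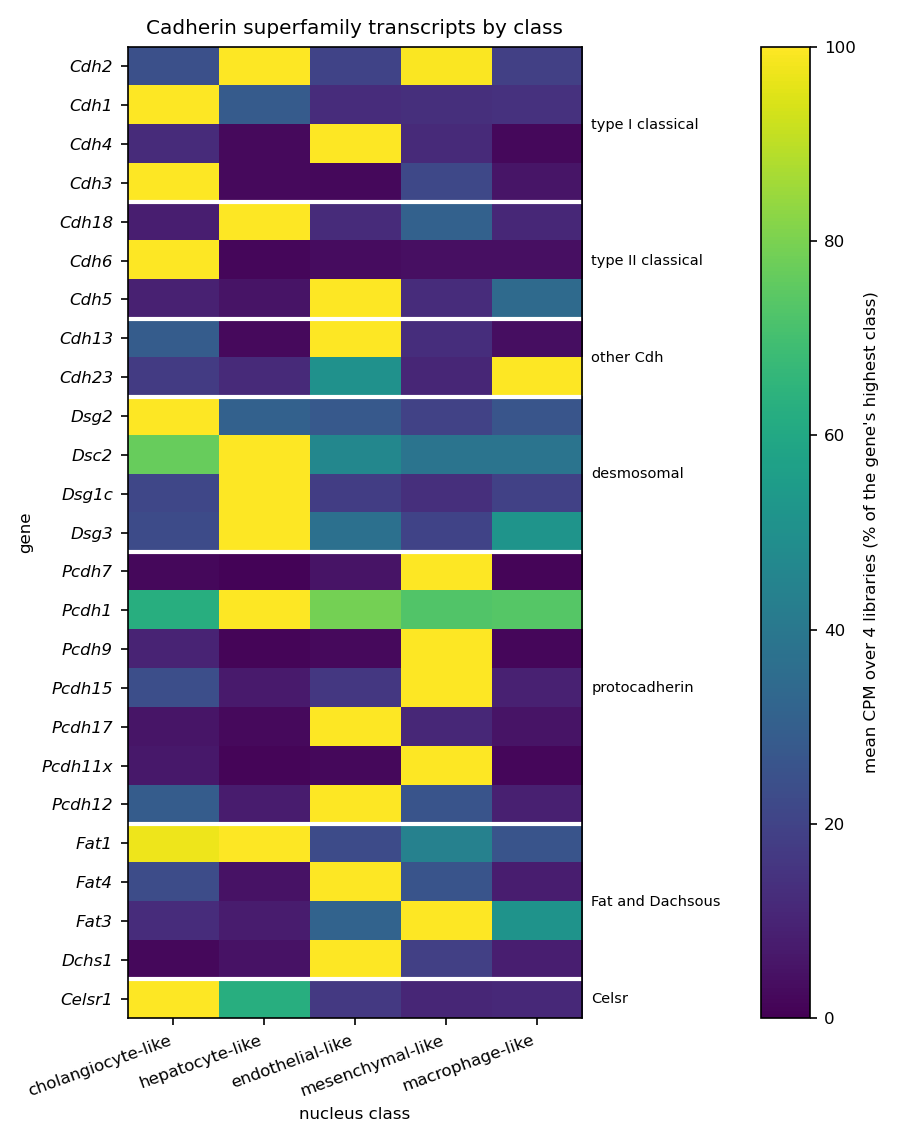
Mean CPM over the 4 libraries in each of the 5 classes, as a percentage of each gene's highest class, for the 25 genes with at least 100 UMIs, grouped by type. Each row compares 1 gene between classes and rows are not comparable with each other. The cholangiocyte-like column is highest for 5 genes, the endothelial-like and hepatocyte-like columns for 7 each.

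Promoters are shown for Cdh6 and Pcdh7, the genes with the highest ratio of leading class to next class among those with at least 1000 UMIs. Sequences are from RefSeq on GRCm38.p6, read 5′ to 3′ on the gene's strand and ending at the base before the annotated start of the gene. Capitals mark the Sp1 GC box GGGCGG.

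Cdh6 promoter, chr15:13173676-13173925, minus strand: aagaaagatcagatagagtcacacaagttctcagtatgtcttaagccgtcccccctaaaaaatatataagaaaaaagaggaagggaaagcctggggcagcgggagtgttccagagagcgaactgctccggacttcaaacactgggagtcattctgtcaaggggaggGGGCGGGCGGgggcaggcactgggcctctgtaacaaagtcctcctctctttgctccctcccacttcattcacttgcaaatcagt

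Pcdh7 promoter, chr5:57717831-57717966, plus strand: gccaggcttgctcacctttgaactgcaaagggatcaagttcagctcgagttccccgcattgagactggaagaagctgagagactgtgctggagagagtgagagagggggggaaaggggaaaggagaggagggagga

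The search covered both strands for GGGCGG, for the E-box CAGGTG bound by the Snail and Zeb repressors of E-cadherin, for TGGGAA, the core bound by RBPJ, and for TATAAA. Cdh6 held 2 overlapping GC boxes, 84 and 80 bases before the start, and neither printed stretch held another of the motifs. Among 32851 promoters with 250 upstream bases, 32.7% held GGGCGG, 17.2% CAGGTG, 21.6% TGGGAA and 12.4% TATAAA. The 29 members with such a promoter had 32 of them, and the shares of these were 34.4, 15.6, 21.9 and 6.25% in the same order. Counted by gene instead, 11 of the 29 had GGGCGG and 4 had CAGGTG (Cdh7, Celsr2, Fat1 and Pcdh15). By the same count 5 had TGGGAA (Cdh7, Cdh24, Cdh26, Fat1 and Pcdh10) and 2 had TATAAA (Pcdh8 and Pcdh15).

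Among the type I classical cadherins, Cdh1 and Cdh3 were highest in cholangiocyte-like nuclei and Cdh4 in endothelial-like nuclei. Without free RNA subtracted, Cdh2 was as high in hepatocyte-like as in mesenchymal-like nuclei. Cdh1, which encodes E-cadherin (chromosome 8, 106603351 to 106670246 on GRCm38), stood at 453, 397, 425 and 402 CPM in cholangiocyte-like nuclei and at 153, 116, 132 and 77.7 CPM in hepatocyte-like nuclei. Its mean of 419 ± 25.5 (SD, n = 4) in the former was 3.50 times that of the latter, and in the other 3 classes it averaged 53.2 to 60.1 CPM, below the 93.8 CPM pooled over unnamed barcodes. Values of that size lie below the unnamed barcodes, which stand in for free RNA here, and are not read as expression.

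Cdh2, which encodes N-cadherin, was high in both hepatocyte-like nuclei (933, 748, 793 and 686 CPM) and mesenchymal-like nuclei (888, 659, 900 and 694 CPM). The ranges of these 2 classes overlapped, with means of 790 ± 105 and 785 ± 127 (SD, n = 4). These values include free RNA, estimated at 27.8 to 38.6% of hepatocyte-like and 55.6 to 72.0% of mesenchymal-like UMIs by different scalings. With free RNA subtracted, Cdh2 was highest in mesenchymal-like nuclei. Cholangiocyte-like, endothelial-like and macrophage-like nuclei averaged 192, 160 and 149 CPM, under the 209 CPM of the unnamed barcodes. By their means, Cdh1 and Cdh2 were thus both above that level in hepatocyte-like nuclei, whereas cholangiocyte-like nuclei exceeded it for Cdh1 and mesenchymal-like nuclei for Cdh2.

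Cdh3, which encodes P-cadherin of basal and ductal epithelia, was a minor cholangiocyte-like transcript at 38.6, 36.6, 38.4 and 16.7 CPM, the last from 1 UMI. Cdh4, which encodes R-cadherin, was an endothelial-like transcript at 205, 261, 223 and 190 CPM, 8.02 times the next class, the cholangiocyte-like nuclei at a mean of 27.4 CPM. The endothelial-like mean was 220 ± 30.9 CPM (SD, n = 4). Cdh15, the remaining type I gene and known from muscle, had 12 UMIs in all kept barcodes.

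Among the 13 type II classical cadherins only Cdh5, Cdh6 and Cdh18 reached 100 UMIs. Cdh6, known as K-cadherin from kidney, stood at 615, 510, 593 and 368 CPM in cholangiocyte-like nuclei and averaged 522 ± 112 (SD, n = 4), 23.7 times the mean of the next class. Its highest value in any library of the other 4 classes was 33.2 CPM. Hence 78.6% of its UMIs in the 5 classes were in cholangiocyte-like nuclei, against 33.2% for Cdh1, and of the epithelial members it was the one most restricted to that class by this measure.

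Cdh18, a cadherin known mainly from brain, was highest in hepatocyte-like nuclei at 388, 351, 383 and 437 CPM (mean 390 ± 35.4, SD, n = 4). Mesenchymal-like nuclei followed at 168, 106, 99.3 and 112 CPM, and the other 3 classes averaged 32.9 to 48.2 CPM, below the 57.6 CPM of unnamed barcodes. Cdh5, which encodes VE-cadherin of endothelial junctions, stood at 134, 117, 104 and 76.6 CPM in endothelial-like nuclei. Macrophage-like nuclei were next at 55.9, 21.9, 47.5 and 23.1 CPM, with a mean of 37.1 above the 18.1 CPM of unnamed barcodes. The other 10 type II genes had 9 to 208 UMIs in all kept barcodes.

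**Figure D2:**
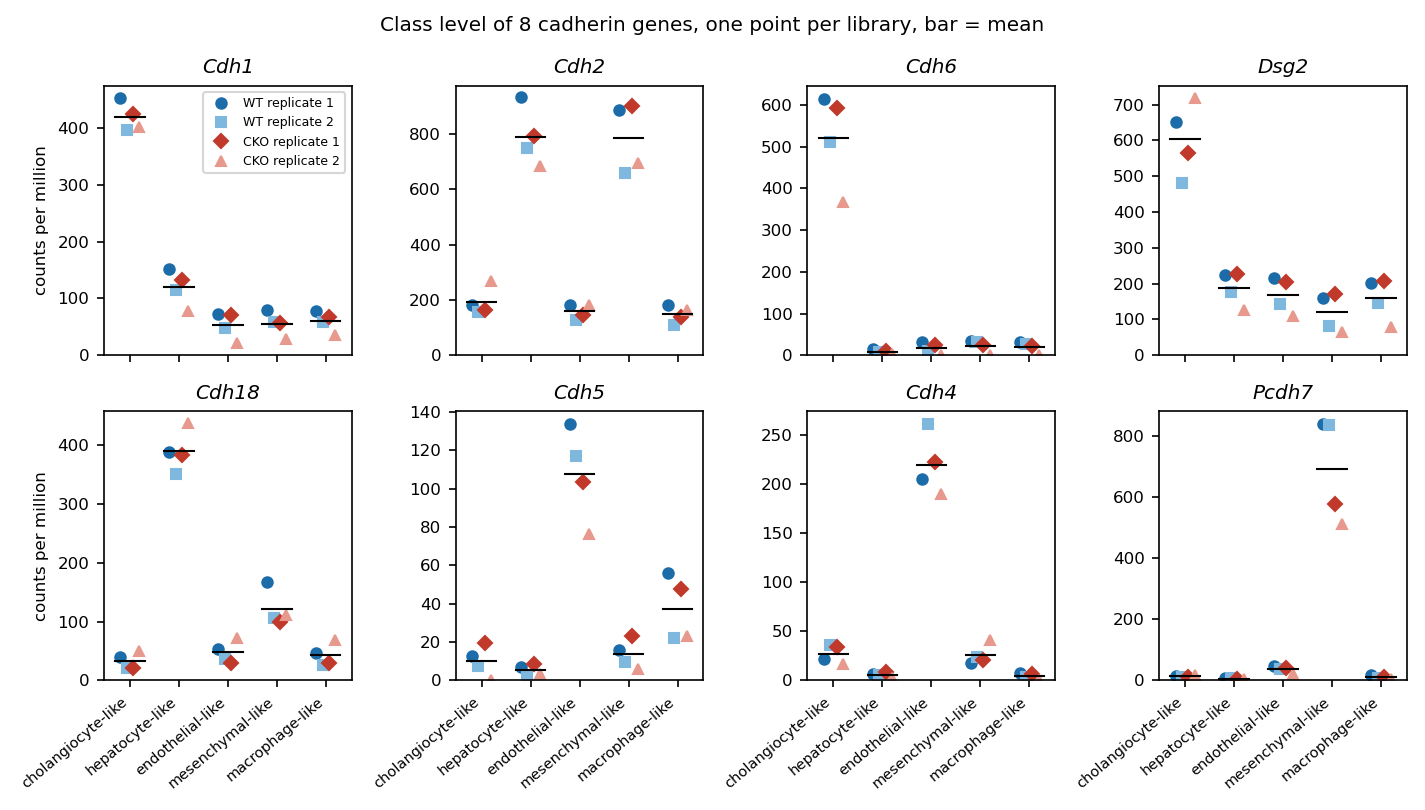
CPM of 8 genes in each class, with 1 point per library and a bar at the mean of 4 libraries. Cdh1, Cdh6 and Dsg2 peak in cholangiocyte-like nuclei, Cdh18 in hepatocyte-like, Cdh4 and Cdh5 in endothelial-like and Pcdh7 in mesenchymal-like nuclei. Cdh2 is similarly high in hepatocyte-like and mesenchymal-like nuclei in these values, from which free RNA was not subtracted.

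Of the remaining genes named Cdh, Cdh13 encodes T-cadherin, which is held in the membrane by a lipid anchor and binds adiponectin. It stood at 485, 331, 310 and 171 CPM in endothelial-like nuclei and at 93.1, 146, 55.3 and 83.6 CPM in cholangiocyte-like nuclei. The lowest endothelial-like library was above the highest cholangiocyte-like library, and the other 3 classes averaged 7.96 to 42.5 CPM. Cdh23, a component of hair-cell tip links, was low throughout and highest in macrophage-like nuclei at 27.0, 45.2, 9.66 and 23.1 CPM, a range that overlapped the endothelial-like nuclei (4.91 to 21.9 CPM). Cdh16, Cdh17 and Cdh26, known from kidney, gut and other epithelia, had 11, 195 and 17 UMIs.

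Desmosomal cadherins were carried by Dsg2 and Dsc2, the pair known from simple epithelia. Dsg2 stood at 652, 481, 564 and 719 CPM in cholangiocyte-like nuclei (mean 604 ± 104, SD, n = 4). In the other 4 classes it averaged 120 to 188 CPM, all below the 266 CPM of unnamed barcodes. Free RNA was estimated at only part of hepatocyte-like UMIs (27.8 to 38.6%). The comparison with unnamed barcodes therefore cannot tell free RNA from expression of Dsg2 in hepatocyte-like nuclei, which was not tested. Dsc2 was spread over both epithelial classes, at 83.4, 44.3, 87.8 and 41.6 CPM in hepatocyte-like and 64.7, 27.4, 71.4 and 33.5 CPM in cholangiocyte-like nuclei, ranges that overlapped.

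Dsg1c, a desmoglein of stratified epithelia, was present in hepatocyte-like nuclei at 111, 24, 27.0 and 7.12 CPM, with WT replicate 1 far above the other 3 libraries. Dsg3, the desmoglein of stratified squamous epithelia, was under 11 CPM in every library and class. Dsg1a, Dsg1b, Dsg4 and Dsc3 had 5, 27, 12 and 5 UMIs in kept barcodes, and Dsc1 had 0. Dsg and Dsc genes lie side by side on chromosome 18 and Dsg1a, Dsg1b and Dsg1c are close copies, so reads may be split between them.

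Non-clustered protocadherins were mainly mesenchymal-like and endothelial-like transcripts, and 7 of 12 reached 100 UMIs. Pcdh7, which encodes NF-protocadherin, stood at 838, 836, 577 and 512 CPM in mesenchymal-like nuclei (mean 691 ± 171, SD, n = 4). That was 18.8 times the next class, endothelial-like nuclei, at 47.5, 38.3, 39.2 and 21.9 CPM. Pcdh11x, an X-linked protocadherin, shared the class at 136, 168, 39.5 and 41.2 CPM, and no library of another tested class exceeded 13.5 CPM.

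Other protocadherins differed as much between libraries of 1 genotype as between classes. Pcdh9 in mesenchymal-like nuclei stood at 10.1, 447, 317 and 0 CPM, from 20, 189, 329 and 0 UMIs. WT replicate 2 was 44.4 times WT replicate 1, and with a floor of 3 UMIs per library (17.6 CPM) CKO replicate 1 was at least 18.0-fold higher than CKO replicate 2. The gene was thus high in 1 library of each genotype and low or not detected in the other. The same libraries were high within the sub-clusters of mesenchymal-like nuclei: the sub-cluster with 7 of 8 stellate cell markers had 0, 65, 18 and 0 UMIs of Pcdh9, and another, led by Tafa1 and Ptprt, had 0, 34, 87 and 0.

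Pcdh17 in endothelial-like nuclei stood at 26.5, 241, 83.4 and 18.2 CPM, again highest in WT replicate 2 and CKO replicate 1. Pcdh9 and Pcdh17 are both on chromosome 14, at 93013410 to 93890679 and 84443563 to 84539002 on GRCm38, and Pcdh20 and Pcdh8, the other members on that chromosome besides Cdh24, had 5 and 0 UMIs. Pcdh15, another tip-link gene, was highest in mesenchymal-like nuclei and ran the other way, at 109, 23.6, 42.4 and 124 CPM. Median UMIs per mesenchymal-like nucleus were 2700.5, 1962, 2383 and 1869. The cause of the differences between libraries in Pcdh9, Pcdh17 and Pcdh15 was not tested. Pcdh1, known from airway epithelium, was nearly level across classes (means of 19.4 to 30.9 CPM, against 29.7 CPM in unnamed barcodes). Pcdh12, an endothelial protocadherin, stood at 34.3, 15.8, 15.2 and 29.2 CPM in endothelial-like nuclei, 3.42 times the next class. Pcdh8, Pcdh10, Pcdh18, Pcdh19 and Pcdh20 had 0 to 80 UMIs.

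**Figure D3:**
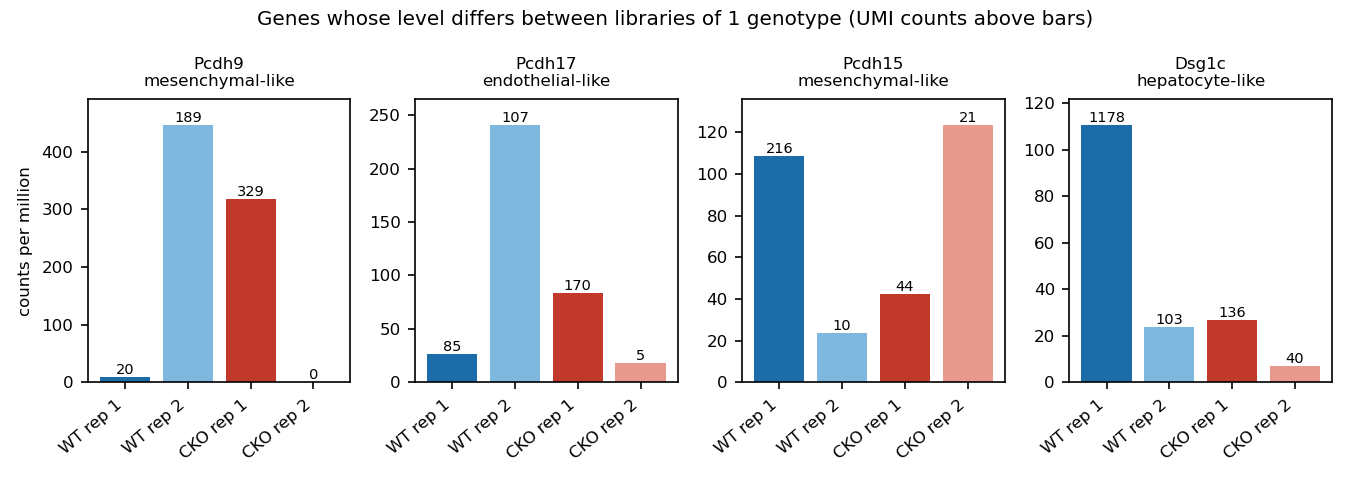
CPM of Pcdh9, Pcdh17, Pcdh15 and Dsg1c in the class where each was highest, 1 bar per library with its UMI count above. Pcdh9 ranges from 0 to 447 CPM and Pcdh17 from 18.2 to 241 CPM, with WT replicate 2 and CKO replicate 1 the higher libraries of both, and Dsg1c is highest in WT replicate 1 at 111 CPM.

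Fat and Dachsous cadherins are receptor and ligand of a growth and polarity pathway. Fat1 was an epithelial transcript at 128, 105, 144 and 64.8 CPM in hepatocyte-like and 120, 87.8, 122 and 100 CPM in cholangiocyte-like nuclei, with overlapping ranges. Fat4 and Dchs1 were instead highest in endothelial-like nuclei. Fat4, the receptor, stood there at 64.9, 33.8, 39.7 and 3.65 CPM, the last from 1 UMI, and Dchs1, its ligand, at 20.6, 9.01, 12.8 and 21.9 CPM, 5.24 times the next class but from only 102 UMIs. Fat3 averaged at most 9.41 CPM in any class, and Fat2 and Dchs2 had 2 and 88 UMIs. Celsr1, a core planar polarity gene, was epithelial: cholangiocyte-like nuclei held 60.4, 47.6, 59.8 and 33.5 CPM and hepatocyte-like nuclei 26.3, 37.1, 37.9 and 24.7 CPM, which overlapped in 1 cholangiocyte-like library resting on 2 UMIs. Celsr2 and Celsr3 had 103 and 20 UMIs.

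Endothelial-like nuclei were not uniform in their cadherins. Cdh13 reached 1116 CPM (pooled over libraries, 335 UMIs in 127 nuclei) in a sub-cluster led by Col8a1, Npr3 and Dkk2 with 7 of 11 vessel markers raised, and 1505 CPM (412 UMIs in 112 nuclei) in one led by Fndc1, Rspo3 and Wnt9b with 5 of 11, the latter 2 genes being Wnt-pathway genes known from the central vein. In the sub-cluster with 5 of 8 sinusoidal markers Cdh13 stood at 509 CPM. Pcdh7 showed the same division, with 276 and 230 CPM in those 2 sub-clusters, 201 CPM (17 UMIs in 32 nuclei) in the sub-cluster with 5 of 6 lymphatic markers, and 10.6 CPM in the sinusoidal-marker one. Cdh4 went the other way, at 96.6, 142 and 47.4 CPM in those 3 sub-clusters and 266 CPM in the sinusoidal-marker one, with a peak of 372 CPM in a sub-cluster led by Akap12 and Adamts9 that also had the most Pcdh12 of the sub-clusters over 100 nuclei (59.3 CPM). Cdh5 was more even, from 64.2 to 190 CPM in the sub-clusters over 100 nuclei. Another sub-cluster, of 342 nuclei led by Gm36723, Slc45a4 and Vegfc, also had 7 of 11 vessel markers raised. Its levels of Cdh13, Pcdh7 and Cdh4 are not given here, so the division is described only for the sub-clusters named.

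Cdh13 in the Col8a1-led sub-cluster was high in each library with more than 1 nucleus there, at 1146, 1189 and 973 CPM in WT replicate 1, WT replicate 2 and CKO replicate 1. In the Rspo3-bearing sub-cluster it stood at 2001, 1500, 846 and 1548 CPM over the 4 libraries. A sub-cluster of 179 endothelial-like nuclei had 11 of 12 macrophage markers raised, and its part in these values was not tested. Leaving out that sub-cluster, with the 2 mesenchymal-like ones led by macrophage or endothelial genes, led to no call between genotypes.

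Mesenchymal-like nuclei divided in a similar way between stellate cell and portal fibroblast markers. Cdh2 stood at 1120 CPM pooled over libraries (889 UMIs in 294 nuclei) in the sub-cluster with 7 of 8 stellate markers, and at 660 and 454 CPM in the sub-clusters with 8 and 5 of 10 portal fibroblast markers. Pcdh15 and Cdh18 followed Cdh2, at 141 and 252 CPM in the stellate-marker sub-cluster, against 27.7 and 18.4 CPM for Pcdh15 and 69.3 and 67.4 CPM for Cdh18 in the portal-marker ones. Cdh11, a cadherin of mesenchymal cells known from osteoblasts and fibrosis, was the reverse, with 32.3 and 42.9 CPM (21 and 7 UMIs) in the portal-marker sub-clusters and 1 UMI in the stellate-marker one. Pcdh11x was also higher in them, at 174 and 245 CPM against 94.5 CPM, as were Fat4 (33.9 and 36.8 against 1.26 CPM) and Fat3 (30.8 and 55.2 against 1.26 CPM). Pcdh7 was high in all 11 mesenchymal-like sub-clusters, from 526 to 1284 CPM.

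The comparison of CKO with WT asked whether loss of Rbpj in progenitor cells went with changed cadherin expression in any class. No member was called in any class at an adjusted p under 0.05 in edgeR's quasi-likelihood test, nor in DESeq2. Tested members numbered 16 in cholangiocyte-like, 21 in hepatocyte-like, 19 in endothelial-like, 15 in mesenchymal-like and 21 in macrophage-like nuclei, and the others of the 53 fell under the count filter. Of all genes tested, 0.063% were called in cholangiocyte-like nuclei and 0% in each of the other 4 classes. On simulated counts the edgeR fit recovered only 1.61 to 27.9% of log2 changes of 1, by class, so changes of that size could go uncalled. At an unadjusted p under 0.05 there was 1 member in cholangiocyte-like nuclei (all genes 5.6%), 0 in hepatocyte-like (1.75%), 0 in endothelial-like (5.36%), 1 in mesenchymal-like (7.59%) and 1 in macrophage-like nuclei (5.16%). Members whose CKO libraries lay wholly outside the WT libraries numbered 1 (all genes 29.8%), 4 (24.3%), 2 (34.6%), 5 (36.8%) and 4 (32.3%) in the same order. The free RNA share estimated from unnamed barcodes was higher in both CKO libraries than in both WT libraries of 3 classes. It was 79.1 and 84.3% against 70.1 and 72.4% in endothelial-like, 66.5 and 72.0% against 55.6 and 61.5% in mesenchymal-like, and 76.3 and 77.7% against 66.2 and 73.0% in macrophage-like nuclei.

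**Figure D4:**
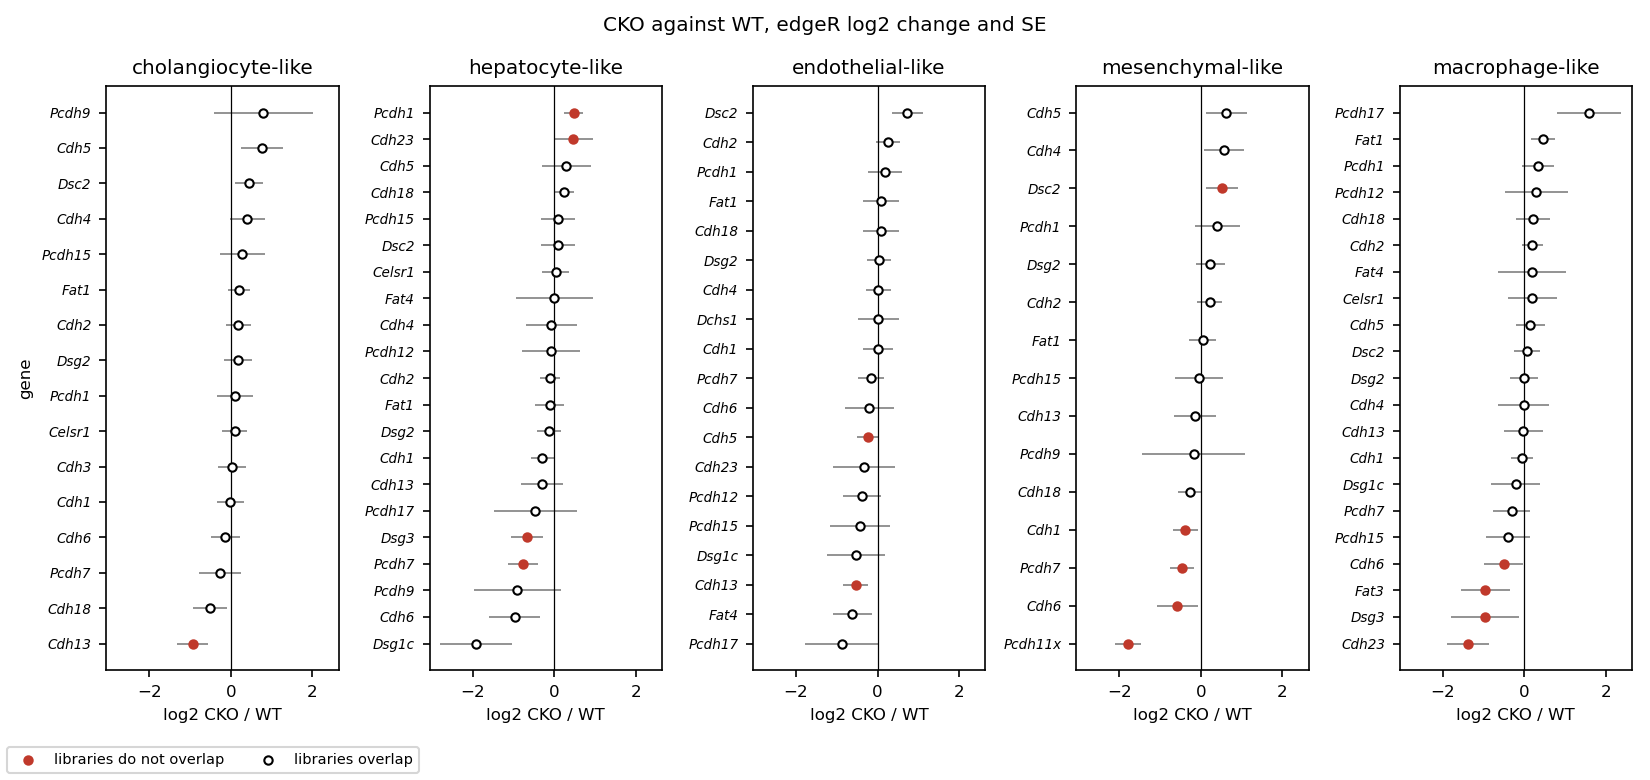
Log2 change of CKO against WT with its SE for every tested member in each class, from edgeR fits over all genes. Filled points mark members whose CKO libraries lie outside the range of the WT libraries, and none has an adjusted p under 0.05. Pcdh11x in mesenchymal-like nuclei is the lowest point of its panel at -1.78.

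The lowest p was that of Pcdh11x in mesenchymal-like nuclei. It stood at 136 and 168 CPM in WT (270 and 71 UMIs) and at 39.5 and 41.2 CPM in CKO (41 and 7 UMIs), without overlap. The log2 change was -1.78 (SE 0.32), with an unadjusted p of 0.000175 and an adjusted p of 0.218 in edgeR, and it was -1.75 in the first replicates and -1.86 in the second. It did pass the threshold when WT replicate 1 or CKO replicate 2 was left out (adjusted p of 0.00572 and 1.84e-06), and not when WT replicate 2 or CKO replicate 1 was (0.216 and 0.113). The fits that called it without those libraries called 29 and 349 genes in all. Without the count filter it was called with all 4 libraries (adjusted p = 0.000263), as 1 of 142 genes. Without the mesenchymal-like sub-clusters led by macrophage or endothelial genes the change was -1.36 (adjusted p = 0.564). The 2 sub-clusters with portal fibroblast markers, where Pcdh11x was high, held 26.7 and 25.5% of mesenchymal-like nuclei in WT and 17.4 and 2.30% in CKO. Outside them Pcdh11x stood at 109, 129, 32.6 and 42.4 CPM, and inside them at 210, 285 and 72.7 CPM and 0 UMIs in 2 nuclei. The make-up outside them differed as well. The sub-cluster with 7 of 8 stellate markers held 212 of 682 and 45 of 200 nuclei in WT. In CKO it held 31 of 402 and 6 of 87. The values outside therefore do not hold sub-cluster make-up constant, and its part in the change was not tested.

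The other mesenchymal-like members were nearer to 0. Pcdh7 was 838 and 836 CPM in WT and 577 and 512 CPM in CKO, a log2 change of -0.46 (SE 0.30, adjusted p = 0.816), and with free RNA subtracted the change was -0.27 (SE 0.25). Dsc2 was 26.2, 14.2, 28.9 and 29.4 CPM (log2 change 0.52, SE 0.39, adjusted p = 0.867), all below its 40.5 CPM in unnamed barcodes. Pcdh9, with its spread between libraries, had a log2 change of -0.18 with an SE of 1.27. When WT replicate 2 was left out, Pcdh9 was called in this class at 4.39 (SE 0.61, adjusted p = 2.02e-09), with the low WT library set against a high and an empty CKO library, and 24 genes were called in that fit.

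In cholangiocyte-like nuclei Cdh13 was 93.1 and 146 CPM in WT and 55.3 and 83.6 CPM in CKO (345, 80, 62 and 5 UMIs), without overlap. Its log2 change was -0.94 (SE 0.37, adjusted p = 0.762), and it was -0.46 without WT replicate 2 and -0.37 without CKO replicate 1. Cdh5 (log2 change 0.76, SE 0.52) and Dsc2 (0.44, SE 0.34) were next in p, and their libraries overlapped. Cdh5 stood at 12.7, 7.32, 19.6 and 0 CPM, from 47, 4, 22 and 0 UMIs. Its log2 change was 0.60 in the first replicates and -1.08 in the second. The 4 members that set this class apart overlapped between genotypes: Cdh1 was 453 and 397 CPM in WT and 425 and 402 in CKO, and Cdh6, Cdh3 and Dsg2 had overlapping libraries as well.

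Endothelial-like nuclei had lower Cdh13 in both CKO libraries (310 and 171 CPM) than in both WT libraries (485 and 331 CPM), a log2 change of -0.54 (SE 0.30, adjusted p = 1.0). With free RNA subtracted it was -0.25 (SE 0.35), with the minimum of 1000 genes -0.32, without CKO replicate 2 -0.28 and without CKO replicate 1 -0.92. VE-cadherin, Cdh5, was 134 and 117 CPM in WT and 104 and 76.6 CPM in CKO (log2 change -0.24, SE 0.26). Dsc2 (log2 change 0.73, SE 0.39, adjusted p = 0.996) and Fat4 (-0.62, SE 0.47) overlapped between genotypes. Both depended on a library: without CKO replicate 2 Dsc2 was called at 1.01 (adjusted p = 0.0387) along with Pcdh9 at 4.75, and without CKO replicate 1 Fat4 was called at -3.51 (adjusted p = 0.00516) on the basis of 1 UMI in the lone CKO library. Those fits called 427 and 299 genes in all, and neither Dsc2 nor Fat4 was called with all 4 libraries.

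In hepatocyte-like nuclei no member had an unadjusted p under 0.05 in edgeR with all 4 libraries and the count filter. Dsg1c had the largest change, -1.91 (SE 0.89, adjusted p = 1.0), which rests on the 111 CPM of WT replicate 1 against 24 CPM in WT replicate 2. It was -0.55 without WT replicate 1 and -3.06 without CKO replicate 1, and its unadjusted p of 0.0870 became 0.0140 in DESeq2 and 0.0301 without the count filter, with an adjusted p of 1.0 in both. Pcdh1 was 25.0 and 28.2 CPM in WT and 36.3 and 34.2 CPM in CKO (log2 change 0.48, SE 0.23), and Pcdh7 was 7.43 and 7.46 CPM in WT and 4.76 and 3.56 CPM in CKO (-0.77, SE 0.37). In macrophage-like nuclei Cdh23 was 27.0 and 45.2 CPM in WT and 9.66 and 23.1 CPM in CKO, a log2 change of -1.38 (SE 0.52, unadjusted p = 0.0278, adjusted p = 0.908). It was -0.16 without CKO replicate 1 and -0.73 without WT replicate 2. Pcdh17 (1.59, SE 0.79) overlapped and Fat3 (-0.96, SE 0.60) did not, and neither was called. Without CKO replicate 2, which had 162 macrophage-like nuclei, Cdh23 (-1.56), Pcdh17 (2.0) and Pcdh9 (2.97) were called, with adjusted p of 0.000285, 0.0088 and 0.000483 in edgeR. That fit called 523 genes in all, against 0 with all 4 libraries.

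A list of adhesion partners and regulators gave the same count of calls. The list held 27 catenins and junction proteins, 11 planar polarity and Fat partners and 6 genes for shedding or repression of E-cadherin, 44 in all. Of these 30 to 36 were tested per class and none was called, and 0, 0, 1, 2 and 0 had an unadjusted p under 0.05 in cholangiocyte-like, hepatocyte-like, endothelial-like, mesenchymal-like and macrophage-like nuclei (5.6, 1.75, 5.36, 7.59 and 5.16% of all genes). Partners without overlap between genotypes numbered 6 of 33, 7 of 36, 15 of 34, 14 of 30 and 5 of 35, against 29.8, 24.3, 34.6, 36.8 and 32.3% of all genes. The catenin-family gene Arvcf, a p120-like protein that binds the juxtamembrane part of cadherins, was 171 and 175 CPM in mesenchymal-like WT libraries and 92.5 and 76.5 CPM in CKO (log2 change -0.84, SE 0.27, adjusted p = 0.473). Its relative Ctnnd2, encoding delta-catenin, was 22.1, 16.5, 7.71 and 0 CPM in the same nuclei (-1.49, SE 0.62, adjusted p = 0.609). Ctnnal1, an alpha-catenin-like gene, was 44.7, 40.6, 23.5 and 10.9 CPM in endothelial-like nuclei (-0.88, SE 0.36, adjusted p = 0.927), whereas Arvcf there was 7.18, 2.25, 10.8 and 18.2 CPM (1.26, SE 0.61).

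In cholangiocyte-like nuclei the desmosomal linker gene Ppl, encoding periplakin, was 91.7, 82.3, 57.1 and 16.7 CPM (log2 change -0.67, SE 0.32, adjusted p = 0.891), and the alpha-catenin gene Ctnna2 was 163, 141, 98.1 and 117 CPM (-0.56, SE 0.29). In hepatocyte-like nuclei the repressor Snai2 was 8.37, 7.69, 4.57 and 4.45 CPM (-0.75, SE 0.35) and Ppl 117, 166, 113 and 65.8 CPM (-0.62, SE 0.35), both without overlap and both at an adjusted p of 1.0. In macrophage-like nuclei Pkp4 (0.46, SE 0.25) and Nectin1 (0.49, SE 0.27) overlapped between genotypes.

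The division of hepatocyte-like nuclei along the porto-central axis was tested within libraries. Nuclei were scored by pericentral minus periportal marker genes, none of them a cadherin, and the outer tertiles were compared with the library as a block, which gave 312 to 595 nuclei per tertile and library. Of 14 members tested 2 were called, against 5.21% of all genes (2.28% higher pericentral and 2.93% higher periportal). Both were higher on the periportal side in 4 of 4 libraries. Cdh1 fell from a mean of 139 CPM in periportal to 93.7 CPM in pericentral nuclei, from 169 to 138, 120 to 110, 147 to 84.7 and 120 to 42.7 CPM in the 4 libraries, a log2 difference of -0.62 (SE 0.13, adjusted p = 0.00447 in edgeR). The planar polarity gene Celsr1 fell from a mean of 36.4 to 25.1 CPM, from 30.7 to 21.0, 47.0 to 24.8, 41.5 to 34.9 and 26.1 to 19.8 CPM (-0.54, SE 0.14, adjusted p = 0.0240).

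Cdh2 ran the other way without passing the test, from 911 to 986, 738 to 807, 749 to 900 and 591 to 767 CPM, higher pericentral in 4 of 4 libraries (log2 difference 0.20, SE 0.07, adjusted p = 0.139). Fat1 was higher pericentral in 3 of 4 libraries (0.23, SE 0.10, adjusted p = 0.252). Dsg2 was level, at -0.02 (SE 0.07). Periportal nuclei were deeper in 3 of 4 libraries, with medians of 5947 against 4824 UMIs in WT replicate 1. With nuclei under 2000 UMIs dropped and the others thinned to 2000, neither Cdh1 nor Celsr1 was called in edgeR. Cdh1 stood at -0.48 (SE 0.15, adjusted p = 0.0554) and Celsr1 at -0.37 (SE 0.22, adjusted p = 0.520). That fit had fewer nuclei (957 against 1130 scored in WT replicate 2) and tested 8322 genes against 10682. It also had fewer UMIs, with 1184000 against 3903560 in the periportal tertile of WT replicate 1. Without CKO replicate 1 Cdh1 was not called (adjusted p = 0.0657), and Celsr1 was called only when CKO replicate 1, or none, was left out (adjusted p of 0.149, 0.168 and 0.0578 on leaving out the first or second WT library or the second CKO library).

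**Figure D5:**
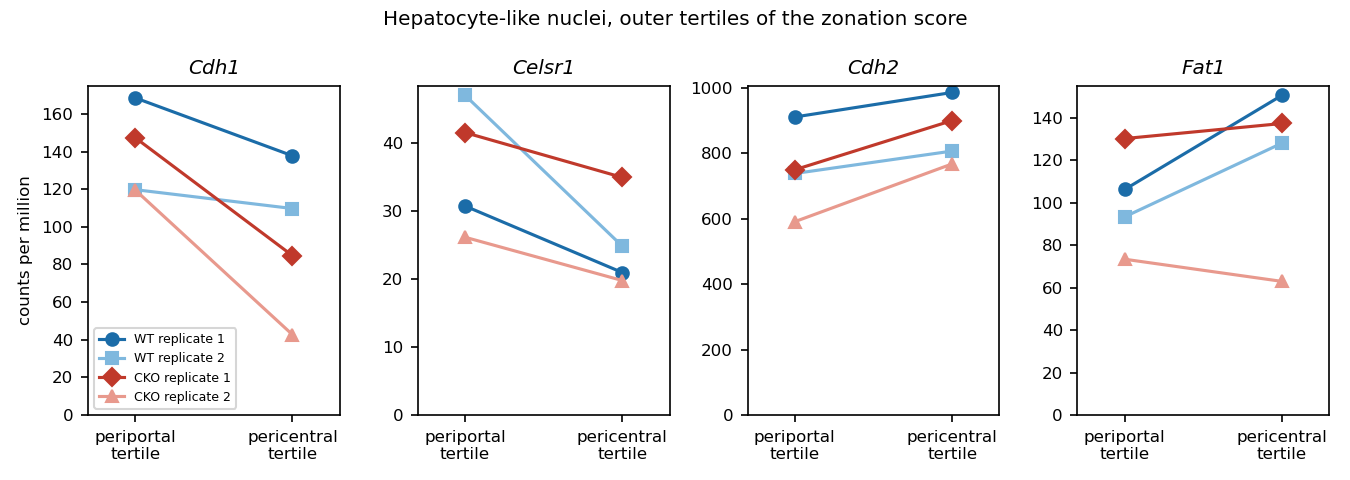
CPM of Cdh1, Celsr1, Cdh2 and Fat1 in the periportal and pericentral outer tertiles of hepatocyte-like nuclei, with 1 line per library. Cdh1 and Celsr1 fall in all 4 libraries, Cdh2 rises in all 4 without passing the test and Fat1 rises in 3.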

How the data were processed

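Nuclei from frozen liver were profiled with 10x 3′ chemistry. The deposited counts are whole-number UMI counts per gene and barcode, which the authors made with Cell Ranger 5.0.1 on mm10, per the submitters' processing notes. All values here start from those deposited counts. The rule for the members reads symbols only, but the members and lists were chosen with earlier results of these data known.

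Barcodes with at least 500 genes were kept, and the top Scrublet scores (0.8% per 1000 barcodes) were removed in each library as doublets. Remaining nuclei were clustered on 2000 variable genes without the 53 members, 30 principal components and 15 neighbours (scanpy 1.11.5, Leiden resolution 1). A cluster was named X-like where at least 3 markers, and at least 0.3 of those listed, were raised 1.5-fold over the lowest 10% of barcodes by UMIs, unless its top 10 genes by fold held more markers of another class than of its own. For each class, the raw counts of a library's nuclei were added up, and CPM relates a gene to the total of that sum. CKO and WT were compared in edgeR 4.0.16 (filterByExpr, TMM, quasi-likelihood, two-sided), with p-values adjusted by Benjamini-Hochberg over all genes of the class. The fit was tested on simulated counts. By class, it recovered 1.61 to 27.9% of log2 changes of 1 and 27.9 to 92.8% of changes of 2. For changes of 3 it recovered 68.6 to 100%. The lowest shares were in hepatocyte-like nuclei. Of the genes called at an adjusted p under 0.05, 10.5 to 14.3% were false. Free RNA was estimated from the barcodes of unnamed clusters 4, 6, 18 and 21, with no cut on UMIs. It was scaled to mitochondrial transcripts in hepatocyte-like nuclei and to secreted hepatocyte transcripts in the other classes. Median UMIs of these clusters were 1946, 1724, 1955 and 1605, against 1762 in macrophage-like nuclei of WT replicate 2. At resolution 2, 1402 barcodes of CKO replicate 1 formed an unnamed cluster led by the cell-division genes Cenpf and Cenpe. The share of nuclei among unnamed barcodes was not tested. A level in unnamed barcodes is treated as that of free RNA alone, whereas free RNA is only a share of a class's UMIs.

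Values per library are given for up to 5 members per type with at least 100 UMIs, the 3 members with the lowest p per class, the 4 between zones, 2 partner genes per class, and Rbpj. Alternatives were DESeq2 1.42.0, RLE size factors, no count filter, the replicate block, each library left out, a minimum of 1000 genes, Leiden resolution 2 and free RNA subtracted. Gene positions are from GENCODE on GRCm38.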

Additional observations from a re-analysis of the deposited data

Results flagged for a closer look

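Cdh23 lay on opposite sides in 2 classes, and neither change passed the test. In macrophage-like nuclei both CKO libraries were below both WT libraries, with a log2 change of -1.38 (adjusted p = 0.908 in edgeR) that was -0.16 without CKO replicate 1. In hepatocyte-like nuclei both CKO libraries were above both WT libraries, with a log2 change of 0.47 (SE 0.48, adjusted p = 1.0 in edgeR). The difference between the classes was not tested. Hepatocyte-like values were 3.29, 2.10, 3.57 and 3.56 CPM, from 35, 9, 18 and 20 UMIs, and lay below the 8.81 CPM of unnamed barcodes.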

How the results depend on the processing

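In cholangiocyte-like and hepatocyte-like nuclei no member was called under any alternative run. With free RNA subtracted fewer members could be tested. They numbered 11 in cholangiocyte-like, 12 in hepatocyte-like, 8 in endothelial-like, 9 in mesenchymal-like and 2 in macrophage-like nuclei. The main fits tested 16, 21, 19, 15 and 21 in the same order. In endothelial-like nuclei 1 member was called without the count filter and 1 with the minimum of 1000 genes (Pcdh9 in both), and 0 to 2 with a library left out. In mesenchymal-like nuclei 1 was called without the count filter (Pcdh11x) and 0 to 1 with a library left out, and in macrophage-like nuclei 0 to 3. The replicate numbers are not said to pair libraries, and same-numbered libraries deviated together with correlations of 0.0686 to 0.270 by class. With the replicate block 1 member was called in mesenchymal-like nuclei, Pcdh11x at -1.68 (adjusted p = 0.0224), and 0 in the other 4 classes; 25 genes were called in that mesenchymal-like fit. Dsg1c in hepatocyte-like nuclei was -1.83 with the block (SE 0.26, unadjusted p = 0.000872, adjusted p = 1.0). Between hepatocyte zones 0 members were called after thinning, 3 in the outer quartiles (Cdh2 at 0.27 was added) and 1 with any library left out. Dsc2 reversed when CKO replicate 1 was left out, and over the libraries left out it ran from -0.57 to 1.12 in cholangiocyte-like and from -0.16 to 1.01 in endothelial-like nuclei. The number of members whose leading class stood apart in every library was 11 of 25, and 16 after free RNA subtraction, 11 with the minimum of 1000 genes and at resolution 2, and 11 to 16 with a library left out. Cdh2 led in mesenchymal-like rather than hepatocyte-like nuclei under 6 alternatives. Leaving out a library, and leaving out sub-clusters led by another class, were chosen for the levels after seeing the data, as were the latter for the calls, which they did not change. Causes were not tested.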

Other observations

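A cluster of 362 nuclei (203, 46, 97 and 16) was left unnamed. In it 7 of 13 cholangiocyte markers and 3 of 5 Schwann cell markers were raised, and its top 10 genes by fold held the Schwann marker Scn7a and no cholangiocyte marker, beside Ceacam20, Dab1, Etv4 and the protocadherin gene Pcdh19. Pooled over libraries it held Cdh6 at 588 CPM, Dsg2 at 793 CPM and Cdh1 at 276 CPM together with Cdh2 at 639 CPM, whereas cholangiocyte-like nuclei averaged 192 CPM of Cdh2 and hepatocyte-like nuclei 8.91 CPM of Cdh6. Dsc2 stood at 197 CPM and Fat1 at 194 CPM, above every library of the 5 tested classes, and Pcdh11x at 107 CPM (148 UMIs). Cdh18 stood at 32.4 CPM, below the 57.6 CPM of unnamed barcodes. Of the 80 UMIs of Pcdh19 in kept barcodes 26 were in this cluster. No test was made, and the share of doublets in it was not tested.

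Mesothelial-like nuclei (49, 17, 12 and 22) were too few to test. They held Cdh11 at 103 CPM (27 UMIs), Cdh3 at 80.4 CPM (21 UMIs), Pcdh7 at 172 CPM (45 UMIs) and Pcdh11x at 84.2 CPM (22 UMIs), pooled over libraries. Their Cdh11 and Cdh3 values were above the mean of each of the 5 tested classes.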
